A study of Mus musculus with 6 samples.

Results

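A set of 10 receptor genes of the tumour necrosis factor (TNF) receptor superfamily that act on T cells was followed in regulatory T cells (Tregs) with and without the transcription factor CREB. These are Tnfrsf4, Tnfrsf18, Tnfrsf9, Tnfrsf8, Cd27, Tnfrsf1b, Tnfrsf14, Tnfrsf1a, Tnfrsf25 and Fas. They were found by exact match of their symbols in the annotation of the array, which gave 11 of 65956 transcript clusters. A transcript cluster is the set of array probes that is summarised to 1 expression value. Fas had 2 clusters and every other gene had 1. The Cd27 cluster is also annotated to the microRNA Mir8113, so its signal cannot be assigned to Cd27 alone. The other 10 clusters carried 1 symbol each.

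The RNA came from CD4+CD25+Nrp1+ cells of the spleen, a gate that enriches Tregs formed in the thymus. The donors were untreated male B6 mice between 10 and 12 weeks old, 3 with the genotype CREB-KO and 3 labelled CREB-WT, and each array held the RNA of 1 mouse. CREB-KO stands for Foxp3creCREBfl/fl: both Creb1 alleles are flanked by loxP sites, and Cre recombinase is expressed from the Foxp3 locus (Foxp3-IRES-Cre), so that recombination takes place in cells that express Foxp3. The control animals are CREB-floxed mice without Cre in the methods of the study and WT in the labels, so the Cre allele and the loss of CREB cannot be told apart. The study ran the arrays to look for genes whose expression depends on CREB in Tregs.

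Receptors of this family sit in the cell membrane and are engaged by ligands of the TNF superfamily on neighbouring cells. One group recruits TRAF adaptor proteins, which activate the NF-kB transcription factors and support survival and division. The other carries an intracellular death domain, which can recruit caspases and start apoptosis, although some of its members also activate NF-kB. Tregs are known for high surface levels of several of the first group, above all GITR, OX40 and TNFR2.

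All values are log2 expression values, and a difference is the mean of CREB-KO minus the mean of CREB-WT on that scale, tested by limma over all clusters. A cluster was counted as changed at the thresholds of the study, which are 1.5-fold (0.58 on the log2 scale) and an unadjusted p of 0.05. At these, 1547 clusters (2.35%) were called, 1067 higher (1.62%) and 480 lower (0.728%) in CREB-KO. When each array was centred on its median, the split was 798 higher and 677 lower. After adjustment over all clusters 0 passed (0.0%), with a smallest adjusted p of 0.511, whereas 3689 had an unadjusted p under 0.05. Array medians lay between 4.48 and 4.58, and correlations between arrays over all clusters between 0.98 and 0.988. The Creb1 signal was 14.10, 14.39 and 14.79 on the arrays labelled CREB-KO and 13.30, 13.94 and 13.34 on those labelled CREB-WT (0.90 ± 0.25 SE, unadjusted p 0.0101), which goes against the label. Which of its probes fall in the deleted part of the gene is unknown here, so this signal does not check the genotype. T cell and Treg markers were bright on all arrays, with a mean level over 13 genes between 14.10 and 14.80, and Il2ra and Ikzf2 among them. Foxp3 and Nrp1 lie on clusters shared with other genes and were not used.

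None of the 11 receptor clusters was past the thresholds of the study, and 0 had an unadjusted p under 0.05. Past the thresholds were 2.35% of all clusters and, of clusters with 1 symbol, 0.914% higher and 0.669% lower. At shares this low, 0 of 11 does not set the receptors apart. Of the 11, 4 lay above 0 and 7 below, with differences between -0.66 for Tnfrsf25 and 0.37 for Tnfrsf4. Their median was -0.056, where the median over all clusters was 0.049. No receptor cluster had all 3 CREB-KO arrays above all 3 CREB-WT arrays, which 7.87% of all clusters did. One, the second Fas cluster, had all 3 below, which 3.29% of all clusters did. Every receptor had a mean signal above 4.52, the median of all cluster means. In bulk samples, fewer cells of a type and less RNA per cell cannot be told apart, which holds for each value that follows.

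**Figure D1:**
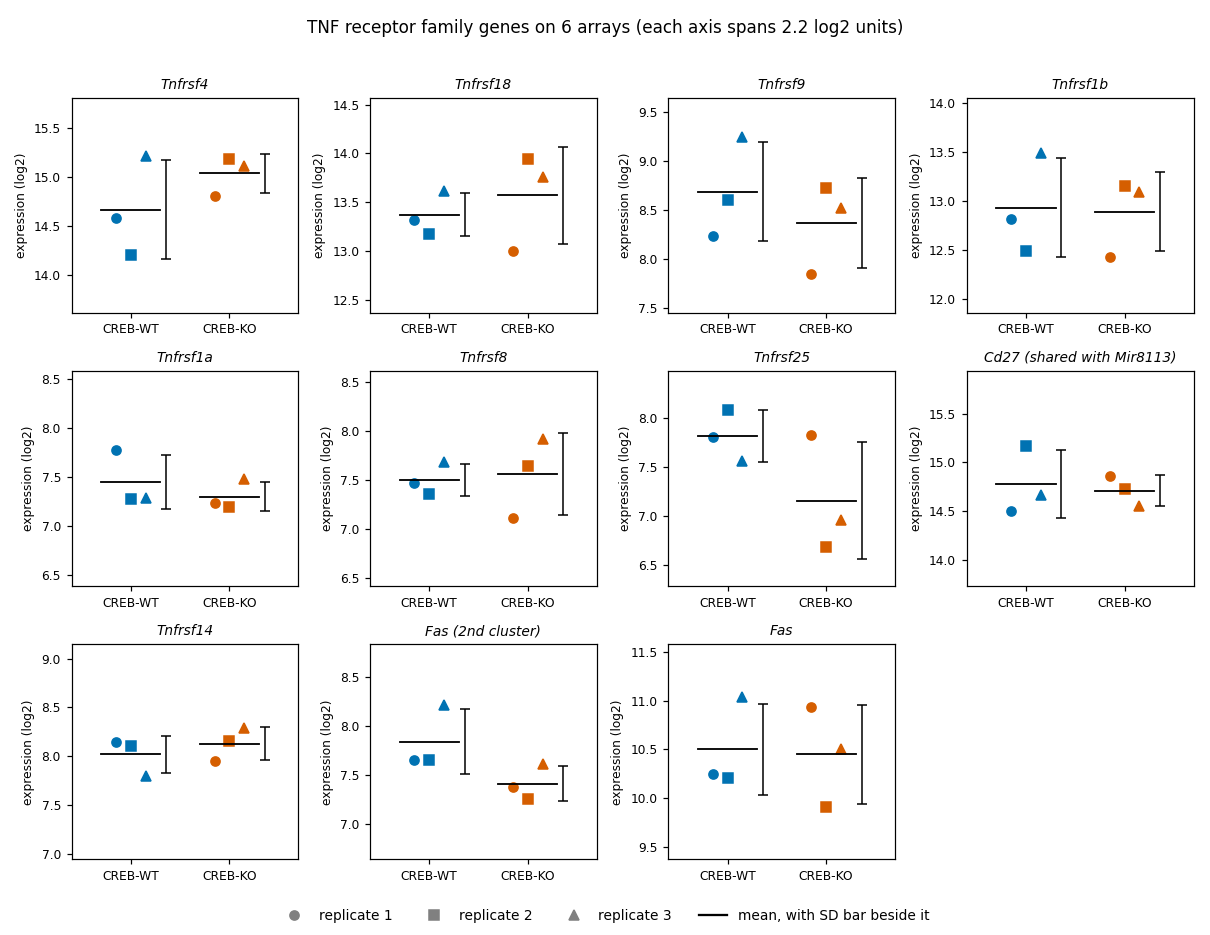
Expression (log2, vertical axis) of the 11 receptor clusters on the 6 arrays, CREB-WT in blue and CREB-KO in orange, with symbols for the replicate number, a line at the mean and a bar of 1 SD (n = 3). In 10 panels the points of both groups overlap; in the panel of the second Fas cluster the CREB-KO arrays (7.25 to 7.61) lie below the CREB-WT arrays (7.65 to 8.22).

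The costimulatory receptors best known from Tregs are considered before the others. Tnfrsf4 encodes OX40, which promotes the survival and expansion of activated T cells. It was 14.81, 15.19 and 15.12 on the CREB-KO arrays and 14.58, 14.21 and 15.22 on the CREB-WT arrays. CREB-WT replicate 3 was the highest of all and CREB-WT replicate 2 the lowest, so the control group spanned the whole range. The difference was 0.37 ± 0.27 (SE), with a 95% interval from -0.28 to 1.02 (unadjusted p 0.215, adjusted p 0.915). Without CREB-WT replicate 3 it was 0.64 with an unadjusted p of 0.0195, past the thresholds, and with the level of the B cell markers as a covariate it was -0.13.

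Tnfrsf18, the neighbour of Tnfrsf4 on chromosome 4, encodes GITR, through which agonists lower the suppression exerted by Tregs in mice. Its values were 13.00, 13.94 and 13.76 in CREB-KO and 13.32, 13.18 and 13.62 in CREB-WT. CREB-KO replicate 1 was the lowest array and the other CREB-KO arrays were the highest, so that the CREB-KO spread (SD 0.50) exceeded that of CREB-WT (SD 0.22). The difference of 0.20 ± 0.27 had an interval from -0.45 to 0.84, and turned to -0.36 and -0.10 with the B cell and the macrophage marker level as a covariate. It was 0.48 (unadjusted p 0.0412, under 1.5-fold) without CREB-KO replicate 1 and 0.011 without CREB-KO replicate 2.

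Tnfrsf1b encodes TNFR2, the receptor through which TNF supports the expansion of mouse Tregs. It was 12.42, 13.15 and 13.09 in CREB-KO and 12.81, 12.49 and 13.49 in CREB-WT, with both groups spread over about the same range. The means were 12.89 ± 0.40 (SD, n = 3) and 12.93 ± 0.51, and the interval of the difference (-0.042 ± 0.31 SE) ran from -0.80 to 0.72, so a 1.5-fold difference either way was within it. Leaving out single arrays moved it between -0.26 and 0.24.

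Cd27 encodes a receptor for CD70 that supports T cell memory and is bright on naive T cells and Tregs. The cluster it shares with Mir8113 was 14.86, 14.73 and 14.55 in CREB-KO and 14.50, 15.17 and 14.67 in CREB-WT. The CREB-KO arrays lay within the range of the controls. The interval of the difference, from -0.55 to 0.42, did not reach 1.5-fold on either side.

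A further group of costimulatory receptors comprised Tnfrsf9, Tnfrsf8 and Tnfrsf14. Tnfrsf9 encodes 4-1BB, which is induced by antigen receptor signalling and marks activated Tregs. Its values were 7.85, 8.73 and 8.52 in CREB-KO and 8.23, 8.60 and 9.25 in CREB-WT. The replicates numbered 1 were the lowest of each group. The difference was -0.33 ± 0.33 with an interval from -1.13 to 0.47 (unadjusted p 0.359). With the B cell marker level as a covariate it was -1.26 (unadjusted p 0.00105) and with that of the macrophage markers -0.76 (unadjusted p 0.023), past the thresholds in both. Both marker levels were themselves lower on average in CREB-KO, so these fits cannot fully separate marker level from genotype. Leaving out single arrays moved it the other way as well, to -0.068 when CREB-KO replicate 1 was dropped and -0.051 when CREB-WT replicate 3 was.

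Tnfrsf8 encodes CD30, a receptor of activated lymphocytes, and lies next to Tnfrsf1b on chromosome 4. It was 7.11, 7.64 and 7.92 in CREB-KO and 7.47, 7.36 and 7.68 in CREB-WT. As for Tnfrsf18, CREB-KO replicate 1 was the lowest array, and the CREB-KO arrays enclosed the controls on both sides. The difference of 0.058 ± 0.23 had an interval from -0.49 to 0.61, and its sign changed with median centring (-0.0057) and with either marker covariate (-0.31 and -0.23).

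Tnfrsf14 encodes HVEM, which delivers a stimulatory signal when it binds LIGHT and in turn engages the inhibitory receptor BTLA on other cells. Its values were 7.95, 8.16 and 8.29 in CREB-KO and 8.15, 8.11 and 7.80 in CREB-WT. The groups overlapped. This was the most closely bounded receptor, with a difference of 0.11 ± 0.15 and an interval from -0.26 to 0.48, which excludes 1.5-fold.

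Among the receptors with a death domain, Tnfrsf25 had the difference farthest from 0 of all 11 clusters. It encodes DR3, whose ligand TL1A expands Tregs in mice. It was 7.83, 6.68 and 6.96 on the CREB-KO arrays and 7.81, 8.09 and 7.56 on the CREB-WT arrays. CREB-KO replicates 2 and 3 lay below every control, whereas CREB-KO replicate 1 lay among the controls. The means were 7.16 ± 0.60 (SD, n = 3) and 7.82 ± 0.27, a difference of -0.66 ± 0.32 (SE; interval -1.42 to 0.10; unadjusted p 0.079, adjusted p 0.912). One array decides the call: without CREB-KO replicate 1 the difference was -1.0 with an unadjusted p of 0.00382, past the thresholds, and without any other array it lay between -0.42 and -0.79 and was not called. It was -0.06 with the B cell marker level as a covariate and -0.34 with that of the macrophage markers.

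Tnfrsf1a encodes TNFR1, the death domain receptor for TNF that most cell types carry. It was 7.23, 7.19 and 7.48 in CREB-KO and 7.78, 7.28 and 7.29 in CREB-WT. CREB-WT replicate 1 stood above the other arrays, which lay close together. The interval of the difference (-0.15 ± 0.18) was -0.58 to 0.28 and stopped short of 1.5-fold on either side.

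Fas, the death receptor through which activated lymphocytes are removed, was measured by 2 clusters. Whether these differ from each other was not tested. The cluster whose identifier (TC1900000497.mm.1) carries chromosome 19, where RefSeq places the gene, was 10.93, 9.91 and 10.50 in CREB-KO and 10.25, 10.21 and 11.04 in CREB-WT. The groups overlapped over nearly their whole range, and the difference was -0.056 ± 0.33 with an interval from -0.86 to 0.75. The second cluster (TC1700001230.mm.1) is also annotated to Fas, but its identifier carries chromosome 17. It was 7.38, 7.25 and 7.61 in CREB-KO and 7.65, 7.65 and 8.22 in CREB-WT, so that the groups did not overlap, by a small margin. Its difference was -0.43 ± 0.20 (interval -0.91 to 0.052, unadjusted p 0.072, adjusted p 0.912), and -0.63 with an unadjusted p of 0.0229 with the macrophage covariate. Because of its identifier, which transcript it measures is uncertain.

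The receptors did not form 1 common pattern over the arrays. CREB-WT replicate 3 was the highest array for 5 of 11 clusters, and CREB-KO replicates 1 and 2 were each the lowest for 4. Over the 9 receptors with a cluster of their own, the median deviation from each gene's mean was -0.14, 0.11 and 0.18 on CREB-KO replicates 1 to 3 and -0.10, -0.17 and 0.15 on CREB-WT replicates 1 to 3. Both groups thus held arrays above and below the mean. The same measure over T cell and Treg markers was -0.46, 0.13 and 0.07 in CREB-KO and -0.02, -0.04 and 0.20 in CREB-WT, lowest on CREB-KO replicate 1 and highest on CREB-WT replicate 3.

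**Figure D2:**
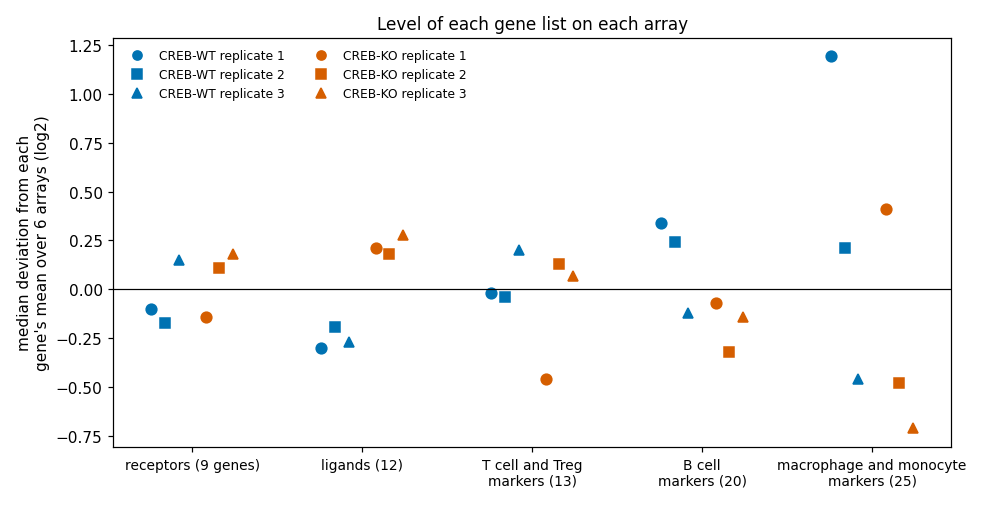
Median deviation (log2, vertical axis) of each gene list from its genes' means over the 6 arrays, 1 point per array, for the receptors, their ligands and markers of T cells, B cells and macrophages. The ligands are above 0 on all 3 CREB-KO arrays (0.18 to 0.28) and below on all 3 CREB-WT arrays (-0.30 to -0.19), whereas the receptors overlap. Over all clusters, which are not drawn, the signs were the same (0.01 to 0.02 in CREB-KO and -0.04 to -0.02 in CREB-WT).

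CREB binds the cAMP response element TGACGTCA and, less tightly, its half-site TGACG, so the promoters of the receptor genes were searched for both on both strands. RefSeq (GRCm38.p6) gave 12 windows for the 10 receptor genes, from 250 bases before to 50 bases after each start. The full element was in 0 of 12 windows, and 1.79% of all 32851 promoters of this length hold it. The half-site, which each full element also contains, was in 1 of 12 windows, and 20.8% of all promoters hold it. The window that holds it is shown because it belongs to Tnfrsf25, the receptor with the difference farthest from 0. It is at chr4:152115684-152115983 on the + strand, the half-site is in capitals as CGTCA, the reverse complement of TGACG, and it begins 69 bases before the start.
Tnfrsf25 promoter: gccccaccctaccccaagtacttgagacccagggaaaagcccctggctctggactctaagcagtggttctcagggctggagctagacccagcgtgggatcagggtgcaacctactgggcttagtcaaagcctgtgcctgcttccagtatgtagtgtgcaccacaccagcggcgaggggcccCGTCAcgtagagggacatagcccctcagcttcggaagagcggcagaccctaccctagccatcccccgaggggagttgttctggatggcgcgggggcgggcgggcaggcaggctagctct
A match of letters is not evidence that CREB binds there, and Tnfrsf25 has another start whose window holds no match.

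The ligands of these receptors, in contrast to the receptors, included genes past the thresholds. In all, 12 ligand genes were measured, 10 of the TNF superfamily and the immunoglobulin superfamily genes Btla and Cd160, whose products bind HVEM. At the thresholds 5 were higher in CREB-KO and 0 lower. Of all clusters 1.62% were higher and 0.728% lower, and of clusters with 1 symbol 0.914% and 0.669%. Of the 12, 10 lay above 0, with a median of 0.59, where 39849 of all 65956 clusters did. Tnfsf8, Btla and Cd160, 3 of the 12, had all CREB-KO arrays above all CREB-WT arrays, where 7.87% of all clusters did. None passed after adjustment, with adjusted p-values between 0.671 and 0.894 for the 5. Of 20 markers of B cells, which are outside the gate, 16 lay below 0 (median -0.40) and 3 were past the thresholds. Their mean level was 6.13 to 6.47 in CREB-KO and 6.45 to 6.94 in CREB-WT. Of 25 markers of macrophages and monocytes, also outside the gate, 22 lay below 0 (median -0.73) and 0 were past the thresholds. Their mean level was 6.45 to 8.10 in CREB-KO and 7.33 to 8.64 in CREB-WT. Markers of conventional CD4 T cells and of dendritic cells were mixed. Of 8 conventional CD4 T cell markers 5 lay above 0 (median 0.36) and 1 was past the thresholds, higher. Of 15 dendritic cell markers 6 lay above 0 (median -0.096), with 1 past the thresholds higher (Cd83, 0.86) and 2 lower (Cd80, -0.84, and Itgax, -0.59). The Cd83 cluster is 1 of 2 for that gene, and its identifier carries no chromosome. Cd86, another of the 15, was 0.56 ± 0.23 (unadjusted p 0.049). The groups did not overlap for any of these 4 genes. The part of other cell types in the ligand differences was not tested. Both marker levels were lower on average in CREB-KO, so the covariate fits that follow cannot fully separate marker level from genotype. The lowest value in the table was 1.52, so no marker is listed at 0. With the B cell marker level as a covariate 1 ligand was called, Tnfsf4 (1.67), and none of the 5. Among the 5, Tnfsf8 (1.42) and Tnfsf14 (1.01) then missed only the p threshold. Btla (0.45), Cd160 (0.15) and Tnfsf9 (0.035) were under 1.5-fold. With that of the macrophage markers 0 were called. The differences were then 0.98 for Tnfsf8, 0.72 for Tnfsf14, 0.55 for both Btla and Cd160, and 0.53 for Tnfsf9. With median centring or quantile normalization 4 were called, all but Tnfsf14 of the 5.

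**Figure D3:**
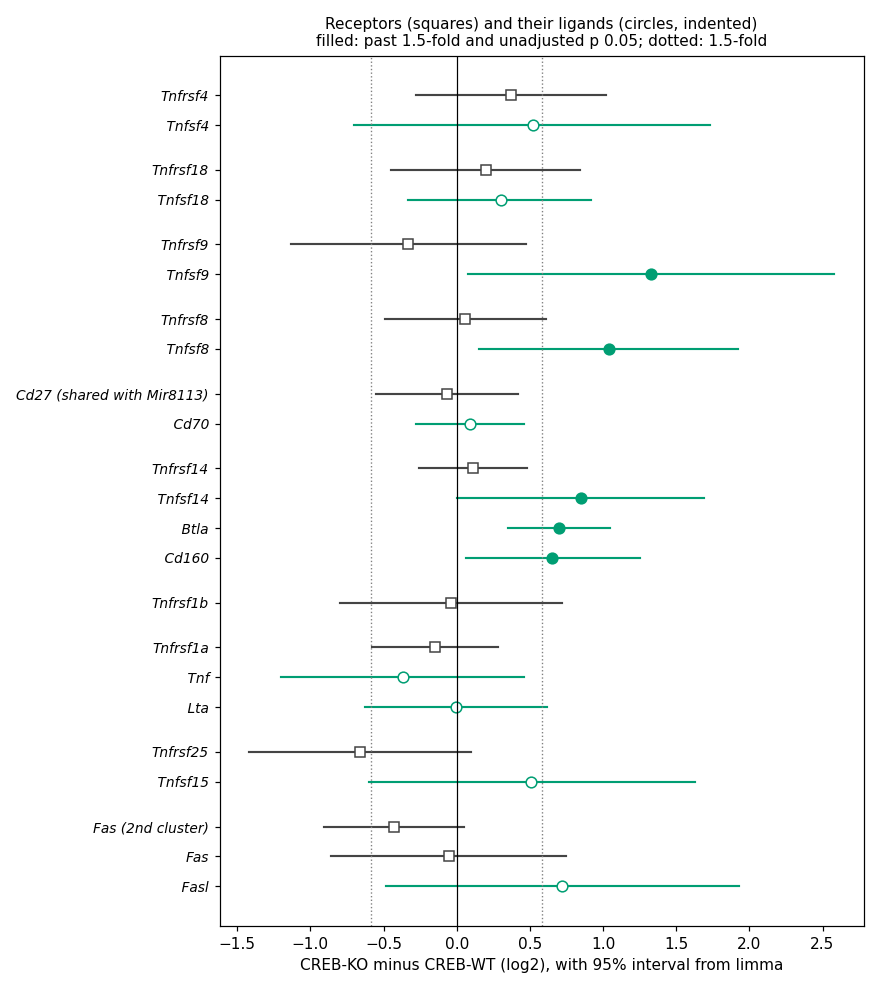
Difference between CREB-KO and CREB-WT (log2, horizontal axis) with its 95% interval from limma for each receptor (squares) and, under it, its ligands (circles); filled symbols are past 1.5-fold and an unadjusted p of 0.05, and dotted lines mark 1.5-fold. The 5 filled symbols are ligands (Tnfsf9, Tnfsf8, Tnfsf14, Btla and Cd160), and no square is filled.

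Of the 5, 3 (Btla, Cd160 and Tnfsf14) encode binding partners of HVEM; Lta, whose product binds HVEM as well, was not called. Btla encodes an inhibitory receptor of lymphocytes. Its values were 11.79, 12.08 and 12.12 in CREB-KO and 11.24, 11.19 and 11.46 in CREB-WT, without overlap. The difference was 0.70 ± 0.15 (SE; 1.62-fold, interval 0.35 to 1.05, unadjusted p 0.00262, adjusted p 0.671). It was past the thresholds whichever single array was left out (0.63 to 0.80), but at 0.55 (unadjusted p 0.0104) with the macrophage covariate it was under 1.5-fold, and at 0.45 (unadjusted p 0.0724) with the B cell covariate it was past neither threshold.

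Cd160 encodes a receptor known from cytotoxic lymphocytes. It was 7.68, 8.02 and 7.49 in CREB-KO and 6.61, 7.30 and 7.32 in CREB-WT. The groups were separated, but CREB-KO replicate 3 lay close above CREB-WT replicates 2 and 3. The difference of 0.65 ± 0.24 (unadjusted p 0.0351) was no longer past the thresholds without CREB-KO replicate 1 (0.68), CREB-KO replicate 2 (0.51) or CREB-WT replicate 1 (0.42).

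Tnfsf14 encodes LIGHT, the stimulatory ligand of HVEM. It was 8.79, 9.37 and 9.94 in CREB-KO and 8.86, 8.69 and 8.0 in CREB-WT. CREB-KO replicate 1 lay below CREB-WT replicate 1, so the groups overlapped. The difference of 0.85 ± 0.35 was at the edge of the p threshold (unadjusted p 0.0496), and it was not called without CREB-KO replicate 2 (0.85) or 3 (0.56), without CREB-WT replicate 2 (0.93) or 3 (0.59), or with median centring (0.78).

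The ligands of the activation-induced receptors 4-1BB and CD30 had the highest differences of the 12. Tnfsf9 encodes 4-1BBL, usually found on antigen-presenting cells. It was 5.26, 6.04 and 6.83 in CREB-KO and 3.92, 4.72 and 5.49 in CREB-WT, where the lowest CREB-KO array lay below the highest control. The signal was dim in the controls: their mean of 4.71 was near the median cluster mean of 4.52, and CREB-WT replicate 1 was below that median. The difference was 1.33 ± 0.52 (2.52-fold, interval 0.080 to 2.58, unadjusted p 0.0403), against -0.33 for its receptor Tnfrsf9. It was not called without CREB-KO replicate 2 (1.33) or 3 (0.94) or without CREB-WT replicate 1 (0.94) or 2 (1.34), and was 0.035 with the B cell covariate and 0.53 with that of the macrophage markers.

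Tnfsf8 encodes CD30L, a membrane ligand made by activated T cells. It was 11.38, 10.50 and 11.72 in CREB-KO and 10.49, 9.67 and 10.33 in CREB-WT. The groups did not overlap, but CREB-KO replicate 2 and CREB-WT replicate 1 differed by only the last digit. The difference was 1.04 ± 0.37 (2.06-fold, unadjusted p 0.028), against 0.058 for its receptor Tnfrsf8. It was not called without CREB-KO replicate 1 (0.95) or 3 (0.78) or without CREB-WT replicate 2 (0.79). Whether any ligand's difference departs from that of its receptor was not tested.

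**Figure D4:**
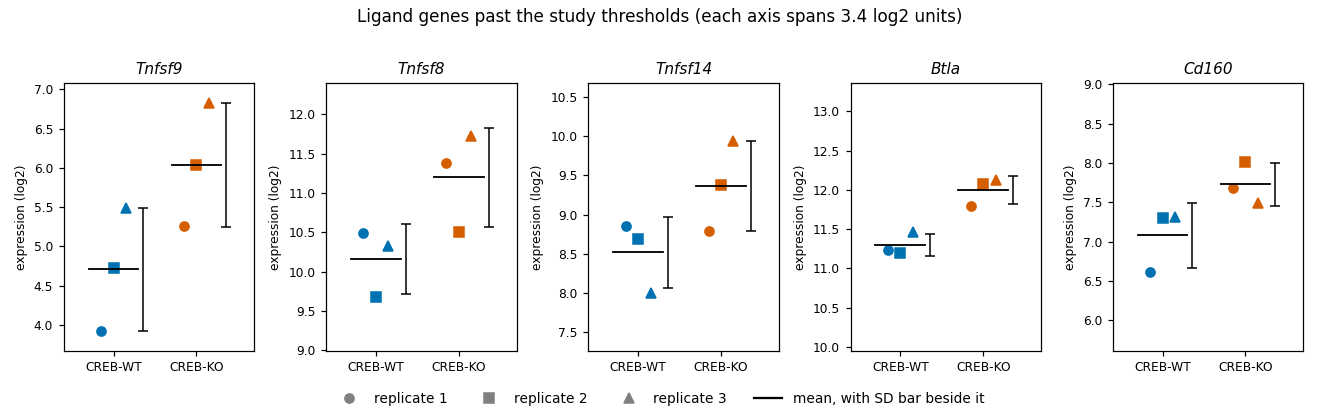
Expression (log2, vertical axis) of the 5 ligand genes past the thresholds on the 6 arrays, CREB-WT in blue and CREB-KO in orange, with symbols for the replicate number, a line at the mean and a bar of 1 SD (n = 3). The groups are separated for Tnfsf8, Btla and Cd160, and overlap for Tnfsf9 and Tnfsf14.

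The ligands of the other receptors were not past the thresholds. Fasl, the ligand of Fas, was 9.10, 7.79 and 7.33 in CREB-KO and 6.80, 7.89 and 7.36 in CREB-WT. A single array, CREB-KO replicate 1, stood above the other 5. The Fasl difference was 0.72 ± 0.50 (1.65-fold, unadjusted limma p 0.195), past 1.5-fold but not the p threshold. Without that array it was 0.21. The difference was 0.52 ± 0.50 for Tnfsf4 (OX40L), 0.30 ± 0.26 for Tnfsf18 (GITRL) and 0.51 ± 0.46 for Tnfsf15 (TL1A), each with an interval that spans 0. Tnfsf15 was 1.0 (unadjusted p 0.0203), past the thresholds, without CREB-WT replicate 2. Cd70, the ligand of CD27, was dim in both groups (means 3.69 and 3.60, below the median cluster mean of 4.52), so its difference of 0.091 ± 0.15 bounds no change in Cd70 RNA. Tnfsf18 was below that median as well. Both genes for soluble ligands of the TNF receptors were not above 0: Tnf was -0.37 ± 0.34 and its neighbour Lta -0.006 ± 0.26, which turned positive with either marker covariate.

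Of 6 further TNF superfamily ligands measured, all lay above 0 (median 0.38), where 39849 of all 65956 clusters did. At the thresholds 1 was higher, where 0.914% of clusters with 1 symbol were. This was Cd40lg, the T cell signal that activates B cells and antigen-presenting cells, which was 10.60, 9.91 and 10.67 in CREB-KO and 9.75, 9.12 and 9.75 in CREB-WT. In each group replicate 2 was the lowest, and the groups did not overlap. The difference was 0.85 ± 0.27 (unadjusted p 0.0192), and it was no longer called without CREB-KO replicate 1 (0.75) or 3 (0.71) or without CREB-WT replicate 2 (0.64). The p threshold was also missed with the B cell covariate (1.09, unadjusted p 0.051), the macrophage covariate (0.83, unadjusted p 0.0597) and the methods' t-test, and Cd40lg is itself 1 of the conventional CD4 T cell markers above. Tnfsf11, which encodes RANKL, and Tnfsf13b, which encodes the B cell survival factor BAFF, had differences of 0.37 ± 0.14 and 0.38 ± 0.12, under 1.5-fold. With Cd40lg, 3 of the 6 were thus higher without overlap of the groups, where 7.87% of all clusters were. Tnfsf13b (CREB-KO and CREB-WT means 4.37 and 4.0) and Eda (4.24 and 4.09) were dim, below the median cluster mean of 4.52.

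Among 18 other receptors of the superfamily 0 were past the thresholds, where 0.914% of clusters with 1 symbol were higher and 0.669% lower. Of the 18, 6 lay above 0. The 2 with the smallest p are receptors known from B cells. Tnfrsf13c, which encodes the BAFF receptor, was 6.03, 6.36 and 5.92 in CREB-KO and 6.55, 6.79 and 6.49 in CREB-WT (-0.51 ± 0.16, unadjusted p 0.0194, under 1.5-fold). Tnfrsf13b, which encodes TACI, differed by -0.33 ± 0.13. For both genes all CREB-KO arrays lay below all CREB-WT arrays, as in 3.29% of all clusters and in 4 of the 20 B cell markers. Eda2r, a receptor of the ectodysplasin pathway with a dim signal (means 4.01 and 3.78), was the only other of the 18 whose groups did not overlap, in the opposite direction (0.24 ± 0.14), as in 7.87% of all clusters.

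The signalling genes below the receptors were not past the thresholds either. Of clusters with 1 symbol, 0.914% were called higher and 0.669% lower, so 0 calls in lists of this size do not set them apart. Of 18 TRAF adaptors and kinases 0 were called and 9 lay above 0, with a median of -0.015. Traf2, an adaptor shared by most of these receptors, was 0.28 ± 0.24, and Tab1 and Tab2, subunits of the TAK1 kinase complex, were -0.28 ± 0.25 and -0.15 ± 0.13. Single arrays moved these values: leaving them out in turn gave 0.052 to 0.51 for Traf2, the highest without CREB-KO replicate 1 (unadjusted p 0.0304), and -0.40 to -0.061 for Tab1. Of 10 death domain pathway genes 0 were called. Tradd, the adaptor of TNFR1 and DR3, came nearest: it was 6.00, 6.52 and 6.70 in CREB-KO and 5.40, 5.93 and 6.11 in CREB-WT (0.60 ± 0.26, unadjusted p 0.0574). The lowest CREB-KO array lay below the highest CREB-WT array. Cflar, which encodes the caspase-8 inhibitor c-FLIP, has 2 clusters with differences of opposite sign. The brighter was 0.21 ± 0.14, but its identifier (TC0300001892.mm.1) carries chromosome 3, so which transcript it measures is uncertain; the other, whose identifier carries chromosome 1 as RefSeq does, was -0.12 ± 0.13. Daxx, a Fas-binding protein of the nucleus, had a difference of -0.27 ± 0.14.

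The NF-kB genes had small differences. Of 4 measured subunit genes 1 lay above 0, and their differences ran from -0.13 ± 0.16 for Nfkb2 to 0.18 ± 0.29 for Rel, with Rela at -0.051 ± 0.11. Of 19 inhibitors and feedback genes 0 were called and 11 lay above 0, with a median of 0.0056. Beside the shares over clusters with 1 symbol (0.914% higher and 0.669% lower), 0 of 19 does not set this list apart. Nfkbia, which encodes the inhibitor IkB-alpha and is itself induced by NF-kB, was 12.97, 12.61 and 12.75 in CREB-KO and 12.41, 12.13 and 12.65 in CREB-WT (0.38 ± 0.18, unadjusted p 0.069). Only CREB-WT replicate 3 reached into the range of the CREB-KO arrays. Sharpin and Rbck1, subunits of the ubiquitin ligase that assembles linear chains at TNF receptors, were -0.36 ± 0.13 and -0.24 ± 0.12, both without overlap of the groups (3.29% of all clusters were lower without overlap) and both under 1.5-fold.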

How the data were processed

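Each transcript cluster has 1 deposited log2 value per array, which the authors made with RMA (background correction, normalization between arrays, summary of probes), per the submitters' processing notes. The design text names a mouse transcriptome array and the methods another Affymetrix array, and labels and methods also name different input amounts and labelling kits. The genotype label set the groups. The RMA version and the array's genome build are not given in the sources used here.

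Clusters were named through the platform annotation: 30638 had 1 symbol, 2176 several and 33142 none, and 22596 matched RefSeq (GRCm38.p6) by Entrez identifier. RefSeq also gave the promoter sequences, in which motifs were searched as text on both strands. For lists, only clusters with 1 symbol were used, and the brightest where a gene had several.

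All 65956 clusters were fitted by limma (version 3.58.1, R 4.3.3; linear model, empirical Bayes, two-sided) with no filter, on the values as deposited. P-values were adjusted by the Benjamini-Hochberg method over the whole table, and intervals are 95% intervals. The fit was tested on simulated data. With 3 arrays a group the smallest p of an exact permutation test is 0.10. The number of arrays limits the precision. The 15 alternatives run were each array left out, the replicate number as a block, the methods' t-test, quantile normalization, median centring, dim clusters left out, clusters with 1 symbol only, a mean-variance trend, and the mean level of B cell or macrophage markers as a covariate. The B cell marker level was 6.13 to 6.47 in CREB-KO and 6.45 to 6.94 in CREB-WT, so it nearly follows the genotype. With 6 arrays, a difference fitted beside it cannot be told apart well from the covariate.

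The receptors and the gene lists were chosen with earlier results of these data known. The genes named are every receptor with every cluster and, from each pathway list, any gene past the study thresholds and the 3 with the smallest p; the other ligands of the receptors were added beside their receptors.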

Additional observations from a re-analysis of the deposited data

How the results depend on the processing

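Of 11 receptor clusters 0 were past the study thresholds; 1 was with the B cell marker covariate (Tnfrsf9) and 2 with the macrophage covariate (Tnfrsf9 and the second Fas cluster), and between 0 and 1 when single arrays were left out. Over all clusters the count of 1547 became 3553 with the B cell covariate, 2342 with the macrophage covariate, 888 with the methods' t-test, 487 with only clusters of 1 symbol, where fewer were tested, and 1648 to 2456 without single arrays. The count at an adjusted p under 0.05 was 0 under every alternative. Of the ligands 5 were called, 1 with the B cell covariate, 0 with the macrophage covariate, 1 with the methods' t-test (Btla) and 2 to 4 without single arrays; these ligand counts, and the alternatives for Lta, Cd70 and the other uncalled ligands, were chosen after seeing the data. The cause was not tested, except for the number of clusters. Signs changed with the B cell covariate for Tnfrsf4 (-0.13), Tnfrsf18 (-0.36), Tnfrsf8 (-0.31), Tnfrsf1a (0.11), Rel (-0.55), Tradd (-0.052), Cflar (-0.028), Eda2r (-0.015), Lta (0.16) and Cd70 (-0.15), with the macrophage covariate for Tnfrsf18 (-0.10), Tnfrsf8 (-0.23), Cd27 (0.0013), Rel (-0.23), Lta (0.24) and Cd70 (-0.068), and with median centring for Tnfrsf8 (-0.0057). Without single arrays differences ran from -0.20 to 0.13 for Cd27, -0.30 to 0.21 for Fas, -0.26 to 0.24 for Tnfrsf1b, -0.24 to 0.012 for Tnfrsf1a, -0.13 to 0.28 for Tnfrsf8, -0.21 to 0.27 for Lta and -0.0069 to 0.46 for Rel. Leaving out an array of 3 leaves 2 in its group. Whether the replicate numbers pair the mice is not settled. Correlations of the deviations were 0.22, 0.02 and 0.04 for same-numbered arrays and -0.19 to 0.18 for arrays with other numbers. Taken over all clusters, they cannot exclude a pairing that acts on some genes. With the replicate block 2037 clusters, 0 receptor clusters and 4 ligands were called. Tnfsf14 was not among them (0.85, unadjusted limma p 0.0954), and Tradd was past the thresholds (0.60, unadjusted limma p 0.00634). Of the receptor values under the alternatives 142 kept sign and side of the thresholds, 17 changed sign and 5 passed them.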
